A study of Mus musculus with 28 samples.

Results

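Fatty acid and cholesterol synthesis were followed through 36 mouse genes in cells sorted from the mammary gland. The genes were taken by symbol from the textbook pathways: 4 regulators, 17 genes of the fatty acid branch and 15 of the sterol branch. Each of the 36 matched 1 row of the count table, which lists 50600 gene IDs.

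Both pathways draw on acetyl-CoA. In the fatty acid branch, Acly makes it in the cytosol from citrate and Acss2 from acetate, Acaca commits it by carboxylation, Fasn builds the saturated chain and Me1 supplies NADPH. Elovl1, Elovl5 and Elovl6 lengthen chains, Scd1 and Scd2 place the first double bond, Fads1 and Fads2 make polyunsaturated chains, and Gpam, Lpin1, Dgat1 and Dgat2 assemble triglyceride, while Thrsp is a small protein linked to lipogenesis. In the sterol branch, Hmgcs1, Mvk, Pmvk, Mvd, Idi1 and Fdps run the mevalonate pathway, Fdft1 makes squalene, and Sqle, Lss, Cyp51, Msmo1, Nsdhl, Hsd17b7, Sc5d and Dhcr7 turn it towards cholesterol. Srebf1 and Srebf2 encode the SREBP transcription factors, Scap carries them out of the endoplasmic reticulum when sterol is low, and Insig1 holds them there. In the mammary gland the fatty acid genes are best known for making milk fat during lactation.

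The mice were adult C57BL/6 females with Pdgfrα-Cre and the R26 mTmG reporter, in which a cell and its descendants turn from tdTomato to eGFP once Cre has acted. The Cre is constitutive, so GFP marks a history of Pdgfra expression and not its present level, and tdTomato+ cells are those in which the reporter was not recombined. From each of 7 mice, 4 left untreated and 3 given slow-release 17β-estradiol and progesterone (E+P), GFP+ and tdTomato+ cells were sorted from a luminal gate (CD49f lo, EpCAM+) and a stromal gate (CD49f-, EpCAM-), both negative for blood and endothelial markers. This gave 8 groups of 4 or 3 libraries, 28 in all, each group named here by gate, reporter colour and treatment, and all 8 carrying the Cre and the reporter.

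Total counts ran from 8623383 to 24583803 per library (median 15329083.5), so that 3 counts were worth 0.122 to 0.348 CPM, the counts of a gene scaled to a common library total. The share of mitochondrial counts ran from 4.30% to 15.9%. A list of 7 luminal epithelial markers summed to 4407 to 7497 CPM in the luminal libraries and 3.18 to 480.2 CPM in the stromal ones, where untreated tdTomato+ stroma of mice 2 and 3 held the 2 highest sums (296 and 480.2 CPM). Luminal progenitor markers (4 genes) summed to 1009.8 to 2275 CPM in GFP+ and 95.1 to 663 CPM in tdTomato+ luminal cells, and hormone-sensing markers (5 genes) to 146 to 1692 and 1695 to 5044 CPM. Fibroblast markers (7 genes) summed to 31721 to 61145 CPM in GFP+ stroma and 1791 to 6522 CPM in tdTomato+ stroma, which instead held skeletal muscle markers (2352 to 21515 CPM over 7 genes) and pericyte and smooth muscle markers (5935 to 9352 CPM over 7 genes). Of 8 adipocyte markers, between 1 and 3 reached 1 CPM in any group, and the list summed to no more than 115 CPM in any library.

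Upstream sequence was read for the 28 members that had an entry in the RefSeq promoter table (build GRCm38.p6), as the 250 bases before each annotated start. The letters CCAAT, bound by NF-Y, a common partner of SREBP, were present on either strand in 22 of the 28, that is 12 of 12 sterol, 7 of 12 fatty acid and 3 of 4 regulator genes, against 37.5% of all 27025 symbols in the table. The GC box GGGCGG was present in 11 of 12 sterol and 6 of 12 fatty acid genes (35.4% of all symbols), and the E-box CACGTG in 3 of 12 and 1 of 12 (6.86%). The sterol-response letters TCACNCCAC occurred in 1 member, Hmgcs1, with no letter shared with another match (1.22% of all symbols). Scd1, Scd2, Fads1, Dgat1, Dgat2, Fdps, Fdft1 and Sqle had no entry. Below are the 250 bases before the start of 4 of the 28 genes with an entry, 5′ to 3′ along the gene, with CCAAT (or ATTGG, its reverse) and TCACNCCAC in capitals. They are Fasn (chr11:120824548-120824797, minus strand), Elovl5 (chr9:77917115-77917364, plus strand), Hmgcs1 (chr13:119690101-119690350, plus strand) and Sc5d (chr9:42264301-42264550, minus strand).
Fasn: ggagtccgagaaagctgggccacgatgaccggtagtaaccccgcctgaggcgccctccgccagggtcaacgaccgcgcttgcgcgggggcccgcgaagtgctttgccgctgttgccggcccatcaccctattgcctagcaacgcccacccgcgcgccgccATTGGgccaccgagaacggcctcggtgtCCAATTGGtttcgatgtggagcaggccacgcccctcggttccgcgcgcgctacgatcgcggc
Elovl5: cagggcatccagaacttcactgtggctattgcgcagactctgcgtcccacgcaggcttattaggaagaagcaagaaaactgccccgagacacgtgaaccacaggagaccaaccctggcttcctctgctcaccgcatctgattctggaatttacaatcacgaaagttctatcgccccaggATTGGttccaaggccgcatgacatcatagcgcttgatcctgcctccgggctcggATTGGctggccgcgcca
Hmgcs1: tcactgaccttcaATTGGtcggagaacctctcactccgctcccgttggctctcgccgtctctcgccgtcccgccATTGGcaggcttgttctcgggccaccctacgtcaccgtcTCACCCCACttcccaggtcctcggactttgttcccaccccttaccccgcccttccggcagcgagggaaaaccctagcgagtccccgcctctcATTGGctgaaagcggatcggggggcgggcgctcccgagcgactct
Sc5d: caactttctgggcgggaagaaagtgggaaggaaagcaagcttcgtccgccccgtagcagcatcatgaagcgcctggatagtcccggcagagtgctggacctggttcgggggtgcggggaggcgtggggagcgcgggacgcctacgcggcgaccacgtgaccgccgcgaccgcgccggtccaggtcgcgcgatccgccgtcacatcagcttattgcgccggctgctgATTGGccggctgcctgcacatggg

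The 3 matches in Fasn lay within 90 bases of the start, with CCAAT and ATTGG sharing letters in the nearer pair. Those of Hmgcs1 were spread over the window, and its TCACCCCAC began 137 bases before the start. Matching letters describe the sequence and were not tested as binding sites.

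The members spanned a wide range of levels. Per kilobase of exon, averaged over the group means, Scd1 had the highest level (53.2 CPM per kb), followed by Acly (22.5), Elovl5 (22.5) and Scd2 (20.7), while Hmgcs1 (14.9) and Fdft1 (8.91) led the sterol branch. Thrsp did not exceed 3.02 CPM and Fdps 3.43 CPM in any library. Of the 50-base stretches of Fdps, 26.2% also occur in other annotated genes, so its level is uncertain. The same share was 30.4% for Acaca, 28.3% for Me1, 26.5% for Fdft1, 25.3% for Idi1 and 11.6% for Hmgcs1, and under 10% for the other 30 members. Scd1 and Scd2 shared 4.56% and 3.97% of their stretches with other genes, chiefly each other and Scd3.

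**Figure D1:**
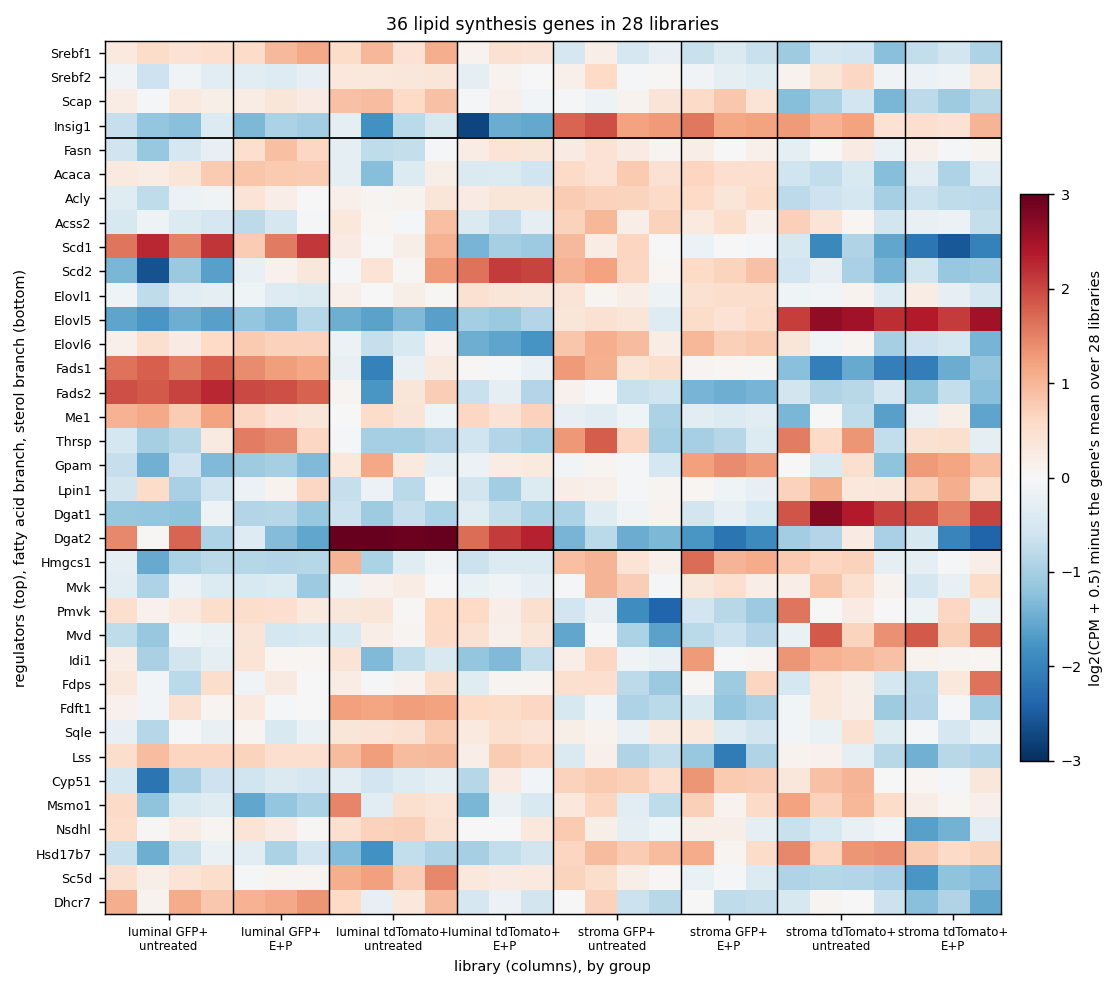
Heat map of the 36 genes (rows: regulators, fatty acid branch, sterol branch) in the 28 libraries (columns by group), coloured by log2(CPM + 0.5) minus the gene's mean over all libraries. Scd1, Fads1 and Fads2 are high in GFP+ luminal cells, Dgat2 in tdTomato+ luminal cells, and Elovl5 and Dgat1 in tdTomato+ stroma.

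The summed fatty acid branch was highest in GFP+ luminal cells, at 1407 ± 187 CPM (SD, n = 4) untreated and 1515 ± 246 CPM (n = 3) after E+P. It stood at 981 ± 193 and 1057 ± 86.5 CPM in tdTomato+ luminal cells. GFP+ stroma held 1198 ± 173 and 1098 ± 22.9 CPM, and tdTomato+ stroma 893 ± 129 and 894 ± 48.9 CPM. Scd1 alone made up 677 CPM of the first of these means and 37.9 CPM of the last, and the order of the groups rested on it. Without Scd1 the summed branch stood at 730.1 ± 61.9 CPM in untreated GFP+ luminal cells, the lowest mean of the 8 groups, and at 741 ± 109 CPM in untreated tdTomato+ luminal cells and 944 ± 122 CPM in untreated GFP+ stroma. After E+P it stood at 975 ± 29.5 and 977 ± 76.1 CPM in GFP+ and tdTomato+ luminal cells. The summed sterol branch, in contrast, was highest in untreated tdTomato+ luminal cells (389 ± 66.5 CPM) and stood at 236 ± 45.9 CPM in untreated GFP+ luminal cells. In bulk libraries, a smaller share of cells of one type and less RNA per cell cannot be told apart.

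Within the luminal gate the 2 subsets differed in opposite directions for members of the same enzyme families. GFP+ luminal cells had more Scd1, Fads1, Fads2, Elovl6 and Acaca mRNA, and tdTomato+ luminal cells more Scd2, Dgat2, Gpam and Elovl1. Of the sterol genes, Fdft1, Sqle and Sc5d were lower in GFP+ cells and Dhcr7 was higher. The comparison sets GFP+ cells, which have a history of Pdgfra expression, against tdTomato+ cells of the same gate. It was tested on the mean over both treatments with edgeR's quasi-likelihood test, adjusted by Benjamini-Hochberg over all genes, with adjusted p under 0.01 taken as a call. The 2 luminal subsets also differ widely in luminal progenitor and hormone-sensing markers, as given above. The part of that makeup in these results was not tested. Differences between subsets are given as log2 fold changes of GFP+ over tdTomato+ cells.

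Scd1, the desaturase that makes oleate from stearate, stood at 548, 862, 508 and 789 CPM in the 4 untreated and 306, 529 and 786 CPM in the 3 E+P libraries of GFP+ luminal cells. In tdTomato+ luminal cells it stood at 213, 177, 201 and 369 CPM and 68.3, 88.7 and 83.7 CPM. The untreated groups did not overlap and neither did the E+P groups, and the level was higher in GFP+ cells of 7 of 7 mice (log2 fold change 2.10, SE 0.24, adjusted p = 2.0e-05, 4.28-fold). Scd2, its paralog, went the other way, with 30.8, 12.8, 36.9 and 25.7 CPM untreated and 69.8, 88.6 and 102 CPM after E+P in GFP+ cells. Its levels in tdTomato+ cells were 77.6, 108, 83.1 and 198 CPM and 249.8, 348 and 333 CPM, higher in each of 7 mice (log2 fold change -2.01, SE 0.26, adjusted p = 5.7e-05). The 2 genes lie in 1 gene cluster on chromosome 19 (Scd1 at chr19:44394455-44407879, Scd2 at chr19:44293674-44306864, GRCm38).

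Fads1 and Fads2, the desaturases of polyunsaturated fatty acids, followed Scd1. Fads2 stood at 84.2, 79.3, 89.95 and 106 CPM in untreated GFP+ luminal cells and 22.9, 6.08, 28.04 and 36.3 CPM in untreated tdTomato+ luminal cells. After E+P the values were 86.7, 84.7 and 75.3 against 13.5, 17.6 and 11.5 CPM, again without overlap (log2 fold change 2.21, SE 0.29, adjusted p = 7.0e-05). Fads1 differed by 1.68 (SE 0.26, adjusted p = 2.0e-04). In untreated tdTomato+ luminal cells the lowest Fads1 and Fads2 values (8.88 and 6.08 CPM) were both those of mouse 2, whose sum of luminal progenitor markers was also the lowest of the 4, at 170.2 CPM against 402 to 663 CPM, and the part of these markers in the result was not tested.

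Dgat2, which adds the last acyl chain of triglyceride, had the largest called difference of any member in this comparison. It stood at 65.9, 109.6, 52.1 and 57.3 CPM in tdTomato+ and 18.2, 6.54, 22.6 and 3.14 CPM in GFP+ luminal cells of the untreated mice. After E+P the values were 21.4, 29.2 and 33.9 and 4.76, 2.31 and 1.83 CPM (log2 fold change -2.90, SE 0.42, adjusted p = 1.3e-04). The groups were separate at both treatments. Among untreated GFP+ libraries, mice 1 and 3 had both the higher Dgat2 levels and the higher sums of hormone-sensing markers (1076 and 1692 CPM, against 405 and 258 CPM in mice 2 and 4), and whether these markers account for any of the difference was not tested. Gpam, the first acyltransferase of the same route, was also lower in GFP+ cells of each of 7 mice (-1.39, SE 0.21, adjusted p = 1.4e-04).

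**Figure D2:**
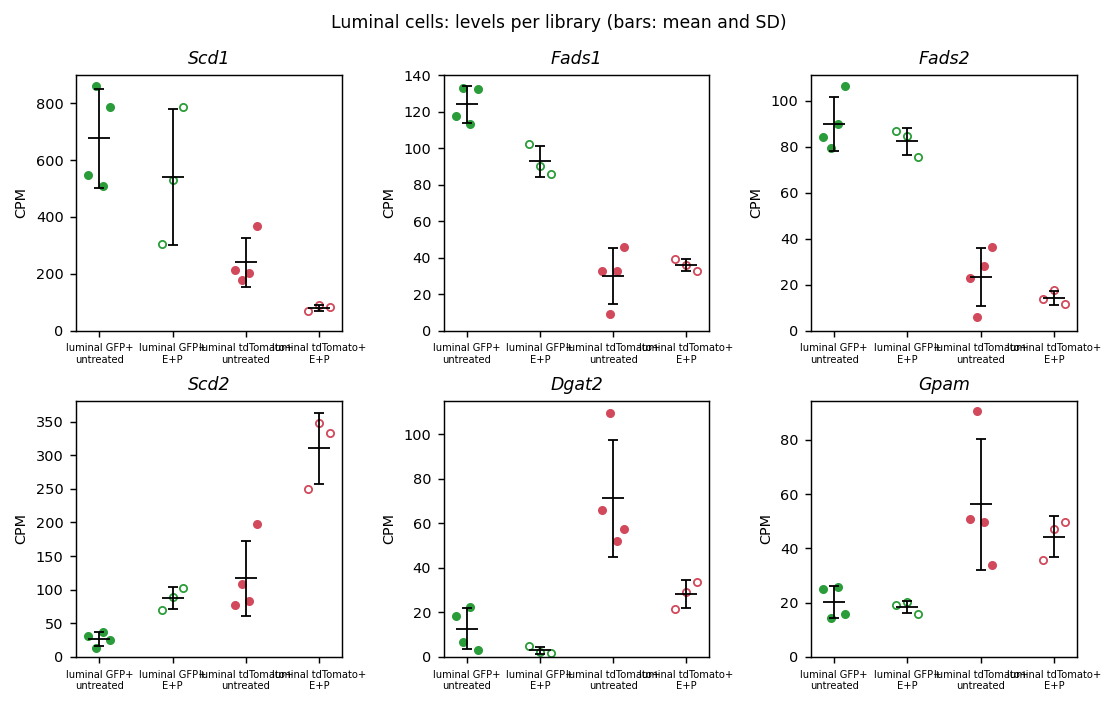
Levels of 6 fatty acid genes in each luminal library (vertical axis CPM from 0, filled points untreated, open points E+P, green GFP+, red tdTomato+), with mean and SD as bars. Scd1, Fads1 and Fads2 sit higher in GFP+ cells and Scd2, Dgat2 and Gpam higher in tdTomato+ cells at each treatment, without overlap.

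Of the 17 fatty acid genes, 5 were called higher in GFP+ luminal cells and 4 lower, where 15.7% and 19.0% of all 16538 genes tested were (34.7% in both directions). The others called were Acaca at 1.02, Elovl6 at 1.53 and Elovl1 at -0.61, all log2. Fasn did not pass (0.06, SE 0.14, adjusted p = 0.75), and the branch median was 0.06, beside 0.00149 over all genes. Of 15 sterol genes, 1 was called higher and 3 lower, with a branch median of -0.49. Scaled by library size alone, which moved the median of all genes by 0.14 log2, the calls over all members changed from 6 higher and 8 lower to 7 and 7.

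Sqle, which makes squalene epoxide and is a rate-limiting step of sterol synthesis, stood at 28.3, 18.5, 33.1 and 28.9 CPM in GFP+ and 44.03, 44.8, 46.5 and 58.8 CPM in tdTomato+ luminal cells of untreated mice. The 2 groups did not overlap, nor did the E+P groups (35.96, 24.8 and 29.5 against 41.5, 47.4 and 45.1 CPM, log2 fold change -0.73, SE 0.13, adjusted p = 3.0e-04). Fdft1, squalene synthase, differed by -0.81 (SE 0.09, adjusted p = 7.1e-06) and Sc5d, a late desaturase of the sterol ring, by -0.52 (SE 0.10, adjusted p = 6.6e-04). Exons of Fdft1 overlap those of Ctsb on the opposite strand, which differed by -0.74 (adjusted p = 2.6e-05), and because the strand setting of the counting is not stated their reads may not be separate. Dhcr7, the last reductase of the route, was called higher at 1.02 (SE 0.21, adjusted p = 0.0012) with levels of at most 12.4 CPM, and the call was lost without E+P mouse 3 (adjusted p = 0.011).

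With the mouse as a block, as both subsets came from the same mice, 4 further members passed: Msmo1 at -0.75 (adjusted p = 2.3e-04), Hmgcs1 at -0.62 (adjusted p = 7.7e-04), Acly at -0.35 (adjusted p = 0.0065) and Idi1 at 0.73 (adjusted p = 0.0054). Without the block they stood at adjusted p = 0.068, 0.056, 0.012 and 0.061. Of the regulators, Srebf2, which drives sterol genes, was lower in GFP+ cells of each of 7 mice (-0.47, SE 0.08, adjusted p = 4.4e-04), and missed the threshold with library size only (adjusted p = 0.011). Srebf1 (0.09, SE 0.12, adjusted p = 0.56), Scap (-0.22, SE 0.08, adjusted p = 0.027) and Insig1 (0.30, SE 0.27, adjusted p = 0.38) did not pass.

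In the stroma GFP+ cells had more Scd1, Scd2, Fads1, Acly, Acaca and Elovl6 mRNA than tdTomato+ cells, and less Elovl5, Dgat1 and Lpin1. In the sterol branch Hmgcs1 and Sc5d were higher and Mvd and Pmvk lower in GFP+ stroma. The 2 stromal populations differ widely in cell makeup, with fibroblast markers in the one and muscle and pericyte markers in the other as given above, and the part of that makeup in these results was not tested.

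Elovl5, an elongase of polyunsaturated chains, had the largest difference of the members with a mean over 100 CPM in the higher population. It stood at 183, 275, 252 and 204 CPM in untreated and 227, 186 and 249 CPM in E+P tdTomato+ stroma. In GFP+ stroma it stood at 56.2, 59.4, 55.6 and 33.2 and 63.95, 58.8 and 64.6 CPM (log2 fold change -2.01, SE 0.14, adjusted p = 1.5e-09). All 7 tdTomato+ libraries were above all 7 GFP+ libraries. Dgat1, the other triglyceride-forming acyltransferase, followed the same order, with 42.7, 77.3, 59.5 and 46.7 CPM in untreated tdTomato+ stroma and 5.53, 8.45, 10.4 and 12.01 CPM in untreated GFP+ stroma. After E+P the values were 42.97, 32.4 and 46.8 and 7.39, 9.24 and 7.97 CPM (log2 fold change -2.49, SE 0.18, adjusted p = 4.4e-09).

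Fads1 stood at 91.96, 79.97, 50.3 and 54.8 CPM in untreated GFP+ stroma and 15.7, 8.75, 12.9 and 8.84 CPM in untreated tdTomato+ stroma. After E+P it stood at 40.4, 39.3 and 39.1 and 8.62, 13.1 and 16.3 CPM (log2 fold change 2.10, SE 0.18, adjusted p = 3.5e-08), so that the 2 populations were separate at both treatments. Scd1 was higher in GFP+ stroma of 7 of 7 mice, with means of 255 ± 75.4 CPM (SD, n = 4) against 82.7 ± 37.1 CPM (n = 4) untreated (1.88, SE 0.22, adjusted p = 5.7e-06). Fads2, which acts before Fads1 in the same route, did not pass here (0.01, SE 0.17, adjusted p = 0.98). Fasn stood at means of 203 and 165 CPM in the 2 untreated groups and did not pass (0.17, SE 0.09, adjusted p = 0.15).

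Sc5d stood at 45.3, 40.8, 31.9 and 29.2 CPM in untreated GFP+ stroma and 14.8, 15.4, 15.3 and 14.3 CPM in untreated tdTomato+ stroma. It stood at 24.8, 27.6 and 21.2 and 8.06, 12.1 and 11.1 CPM after E+P (log2 fold change 1.25, SE 0.14, adjusted p = 5.7e-07). Mvd, which closes the mevalonate pathway, was lower in GFP+ stroma of each of 7 mice (-2.40, SE 0.37, adjusted p = 3.5e-05), at 1.01 to 3.95 CPM against 3.51 to 16.02 CPM. Hmgcs1, HMG-CoA synthase, was higher in GFP+ stroma of 6 of 7 mice (0.72, SE 0.18, adjusted p = 0.003), a call lost without E+P mouse 1 (adjusted p = 0.027). Pmvk, at no more than 21.8 CPM, was called lower (-1.45), and lost the call without E+P mouse 1, 2 or 3 (adjusted p = 0.013 to 0.036). Sqle did not pass (0.08, SE 0.16, adjusted p = 0.7).

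Of the 17 fatty acid genes, 6 were called higher and 3 lower in GFP+ stroma, and of 15 sterol genes 2 and 2, where 20.6% and 21.3% of 17783 genes tested were (42.0% in both directions). The medians were 0.21 and -0.23, beside -0.0104 over all genes. Among regulators Scap was higher in GFP+ stroma of 7 of 7 mice (1.30, SE 0.14, adjusted p = 3.4e-07), at 40.1 to 77.5 CPM against 16.8 to 29.6 CPM. Insig1 was higher too (0.60, SE 0.16, adjusted p = 0.0043), but not without untreated mouse 2 or E+P mouse 1 or 2 (adjusted p = 0.017 to 0.039). Srebf1 (0.36, SE 0.14, adjusted p = 0.039) and Srebf2 (-0.18, SE 0.13, adjusted p = 0.25) did not pass.

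**Figure D3:**
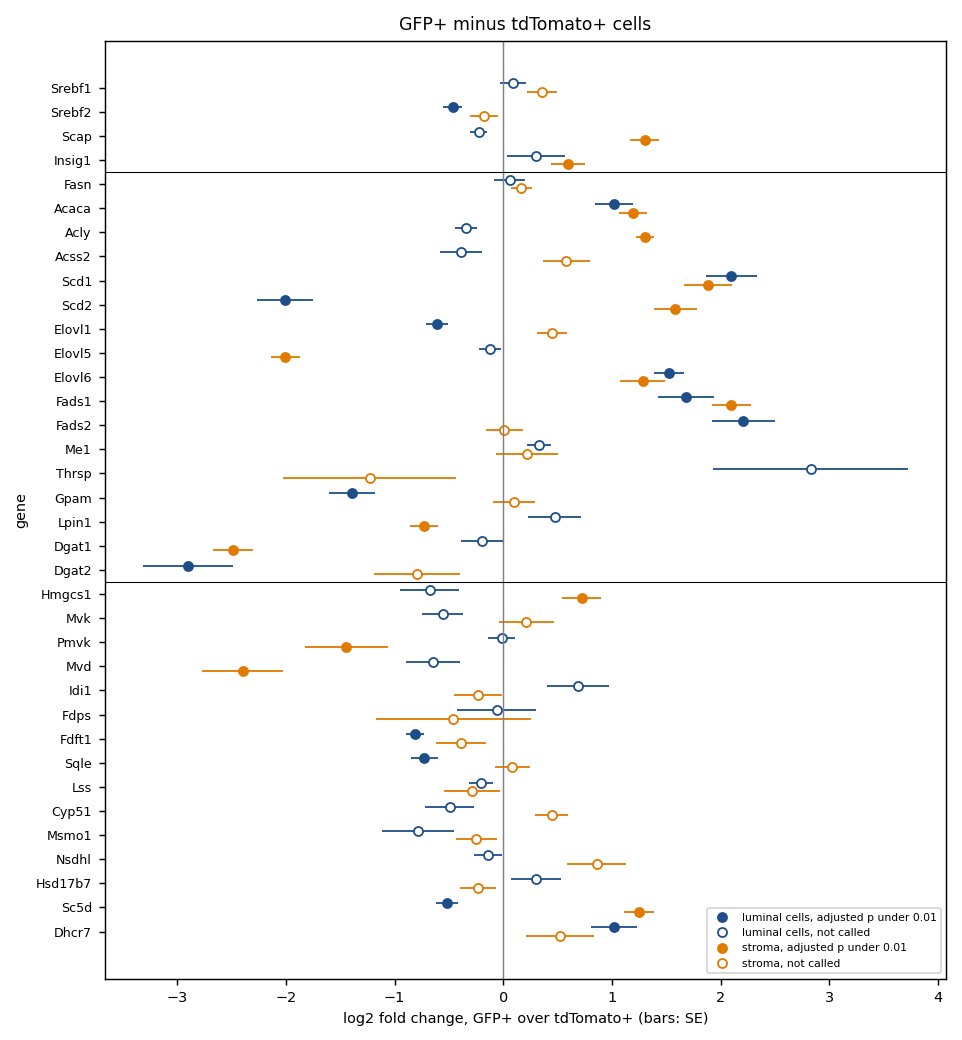
Log2 fold change of GFP+ over tdTomato+ cells for each of the 36 genes in luminal cells (blue) and stroma (orange), with SE as bars and filled points for adjusted p under 0.01. Scd1, Fads1, Elovl6 and Acaca lie to the right in both lineages, and Scd2 and Sc5d lie on opposite sides.

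Whether the subset difference itself differed between luminal cells and stroma was tested as an interaction over all 28 libraries, in which 6 members were called positive and 11 negative, beside 17.0% and 16.3% of 19569 genes. Scaled by library size alone, which moved the median of all genes by 0.20 log2, 7 were positive and 7 negative. Scd2 had the largest called interaction (log2 fold change -3.58, SE 0.35, adjusted p = 1.2e-08), since it was lower in GFP+ luminal cells and higher in GFP+ stroma. Sc5d (-1.76, SE 0.17, adjusted p = 3.5e-09) changed sides in the same way. Fads2 (2.21, SE 0.33, adjusted p = 6.1e-06) was higher in GFP+ luminal cells and stood at 0.01, not called, in the stroma, and Dgat2 (-2.08, SE 0.58, adjusted p = 0.0053, a call lost without untreated mouse 1 or 2 or E+P mouse 2 or 3 (adjusted p = 0.012 to 0.063)) was lower in GFP+ luminal cells and stood at -0.79, not called, in the stroma.

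Dgat1 (2.31, SE 0.27, adjusted p = 1.3e-07) was called in the stroma and stood at -0.19, not called, between luminal subsets. Mvd (1.76, SE 0.47, adjusted p = 0.0031), Pmvk (1.44, SE 0.42, adjusted p = 0.0071) and Hmgcs1 (-1.39, SE 0.34, adjusted p = 0.002) were called among sterol genes, each lost without some mice: Mvd without untreated mouse 3 or 4 or E+P mouse 1 or 3 (adjusted p = 0.011 to 0.039), Pmvk without untreated mouse 1 or 3 or E+P mouse 1, 2 or 3 (adjusted p = 0.017 to 0.074) and Hmgcs1 without E+P mouse 1, 2 or 3 (adjusted p = 0.012 to 0.021). Scap (-1.51, SE 0.16, adjusted p = 2.2e-08) was the 1 regulator called, while Srebf1 (-0.26, adjusted p = 0.31), Srebf2 (-0.28, 0.19), Insig1 (-0.29, 0.52) and Fasn (-0.09, 0.74) were not. Sqle was called (-0.80, SE 0.22, adjusted p = 0.0039) but not without untreated mouse 1, 2 or 4 or E+P mouse 2 or 3 (adjusted p = 0.012 to 0.032). For Scd1, Fads1, Elovl6 and Acaca the interaction did not pass (adjusted p = 0.65, 0.34, 0.48 and 0.62), which does not show the 2 differences to be equal. Acss2 and Nsdhl, called at -0.96 and -0.996, missed the threshold with the mouse as a block (adjusted p = 0.015 and 0.014), Acss2 without untreated mouse 1, 2 or 4 or E+P mouse 1, 2 or 3 (adjusted p = 0.012 to 0.046), Nsdhl without untreated mouse 1, 2, 3 or 4 or E+P mouse 1 or 2 (adjusted p = 0.0104 to 0.056) and Lpin1 without E+P mouse 2 (adjusted p = 0.017). Exons of Acss2 overlap Ggt7 and Gss on the opposite strand, whose own interaction values were -2.45 (adjusted p = 0.0024) and -0.57 (adjusted p = 0.034), so that its reads may not be separate. Dgat2 and Sqle also missed the threshold with library size only (adjusted p = 0.011 and 0.03), and Dgat2 without the low-count filter (adjusted p = 0.014) and by limma-voom (adjusted p = 0.01002).

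Treatment with E+P, ovarian hormones that rise in pregnancy, was compared with no treatment in each sorted population, as log2 fold changes of treated over untreated mice. In GFP+ luminal cells 2 of the 36 members were called, Fasn and Scd2, both higher, where 3.17% of all genes were called higher and 2.78% lower, 5.96% in all. No sterol gene or regulator was called in them by edgeR, with 1 sterol gene and 1 regulator under an unadjusted p of 0.05. DESeq2 called 5 members and limma-voom 2. The shares of all genes under that unadjusted threshold and by these tools are not given, here or below. Such counts are therefore not read as a response. The next members by adjusted p were Acly (0.54, SE 0.14, adjusted p = 0.022), Elovl5 (0.52, SE 0.14, adjusted p = 0.023), Me1 (-0.58, SE 0.16, adjusted p = 0.027) and Dgat2 (-2.14, SE 0.61, adjusted p = 0.036).

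Fasn, the synthase of the pathway, stood at 112, 76.8, 120.3 and 144 CPM in the 4 untreated libraries of GFP+ luminal cells and 240.3, 318 and 265 CPM in the 3 E+P libraries. All 3 treated libraries were above all 4 untreated ones (log2 fold change 1.27, SE 0.20, adjusted p = 0.0015, 2.42-fold). The call was lost without E+P mouse 2 (adjusted p = 0.017). In tdTomato+ luminal cells Fasn stood at 142, 101, 104 and 164 CPM untreated and 201, 226 and 220.1 CPM after E+P. There too the groups did not overlap, and the adjusted p was just above the threshold (log2 fold change 0.78, SE 0.20, adjusted p = 0.011).

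Scd2 rose from 30.8, 12.8, 36.9 and 25.7 CPM to 69.8, 88.6 and 102 CPM in GFP+ luminal cells (log2 fold change 1.70, SE 0.36, adjusted p = 0.0081). In tdTomato+ luminal cells it rose from 77.6, 108, 83.1 and 198 CPM to 249.8, 348 and 333 CPM (log2 fold change 1.44, SE 0.35, adjusted p = 0.0097). In both populations the treated and untreated libraries were separate, with 1 untreated tdTomato+ library, that of mouse 4, well above its group. The call in GFP+ cells was lost without untreated mouse 1 or 2 or E+P mouse 1, 2 or 3 (adjusted p = 0.018 to 0.042), and that in tdTomato+ cells without untreated mouse 1, 2 or 3 or E+P mouse 1, 2 or 3 (adjusted p = 0.011 to 0.055). Both were also lost with library size only (adjusted p = 0.013 and 0.022), without the low-count filter (0.028 and 0.036) and in a fit of the groups compared alone (0.013 and 0.017).

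Scd1 fell in tdTomato+ luminal cells, from 213, 177, 201 and 369 CPM to 68.3, 88.7 and 83.7 CPM (log2 fold change -1.55, SE 0.33, adjusted p = 0.005). Elovl6, which lengthens palmitate to stearate, fell there from 13.1, 9.07, 10.7 and 16.4 CPM to 5.05, 4.62 and 4.04 CPM (log2 fold change -1.41, SE 0.20, adjusted p = 2.5e-04). In GFP+ luminal cells Elovl6 stood at 16.6, 21.1, 17.6 and 22.6 CPM and 25.9, 24.5 and 24.2 CPM (0.35, SE 0.19, adjusted p = 0.23), and Scd1 at -0.33 (SE 0.32, adjusted p = 0.54) log2. The Scd1 call in tdTomato+ cells was lost without untreated mouse 1 or 4 or E+P mouse 1, 2 or 3 (adjusted p = 0.011 to 0.026) and without the low-count filter (adjusted p = 0.019).

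Scap, the SREBP escort, fell in tdTomato+ luminal cells from 81.4, 84.3, 67.9 and 82.5 CPM to 43.02, 48.9 and 41.9 CPM (log2 fold change -0.80, SE 0.11, adjusted p = 2.3e-04). In GFP+ luminal cells it stood at 51.5, 42.5, 54.8 and 50.4 CPM and 51.7, 56.7 and 52.8 CPM (0.11, SE 0.11, adjusted p = 0.55). Every treated tdTomato+ library was below every untreated one. Of the sterol branch, Sc5d (60.5, 66.8, 47.4 and 78.3 CPM to 35.3, 33.4 and 34.95 CPM, log2 fold change -0.85, SE 0.14, adjusted p = 8.1e-04) and Fdft1 (80.5, 77.4, 81.96 and 78.4 CPM to 51.4, 49.6 and 52.4 CPM, log2 fold change -0.61, SE 0.12, adjusted p = 0.0027) fell in tdTomato+ luminal cells. The Fdft1 call was lost without untreated mouse 1 or E+P mouse 2 or 3 (adjusted p = 0.0105 to 0.017), and Ctsb, on its opposite strand, moved by 0.98 (adjusted p = 1.5e-04).

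In tdTomato+ luminal cells 1 member in all was called higher and 5 lower, where 7.63% and 6.44% of all genes were. The treated and untreated libraries did not overlap for 4 members that were higher and 10 that were lower after E+P (17.1% and 18.8% of all genes). In GFP+ luminal cells these counts were 7 and 3 (14.3% and 13.4%). Scaled by library size alone, which moved the median of all genes by -0.22 log2, 0 members were called higher and 9 lower in tdTomato+ cells, with DESeq2's size factors in edgeR 3 and 5, and without the low-count filter 0 and 4. The sterol branch median was -0.47 in tdTomato+ and 0.00 in GFP+ luminal cells, and the fatty acid branch median -0.10 and 0.04, beside -0.0481 and -0.0333 over all genes.

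Srebf1 stood at 0.46 in GFP+ and -0.45 in tdTomato+ luminal cells (log2, adjusted p = 0.075 and 0.061). Srebf2 stood at -0.04 and -0.37 (adjusted p = 0.85 and 0.035), Insig1 at -0.27 and -1.13 (adjusted p = 0.69 and 0.045) and Sqle at 0.14 and -0.09 (adjusted p = 0.65 and 0.74). None of these 4 passed. Proliferation markers (6 genes) summed to 57.3 to 368 CPM in untreated and 1456 to 1745 CPM in treated GFP+ luminal cells, and to 24.5 to 137 and 239 to 379 CPM in tdTomato+ luminal cells. Hormone-sensing markers summed to 3419 to 5044 CPM in untreated and 1695 to 2767 CPM in treated tdTomato+ luminal cells, and to 258 to 1692 and 146 to 252 CPM in GFP+ luminal cells. Basal epithelial markers (5 genes) summed to 41.6 to 85.5 CPM untreated and 117 to 132 CPM treated in GFP+ cells, and to 7.605 to 18.3 and 35.4 to 62.5 CPM in tdTomato+ cells. Adipocyte markers summed to 25.6 to 45.7 and 16.9 to 20.5 CPM in GFP+ and 67.2 to 94.1 and 38.7 to 40.7 CPM in tdTomato+ cells. The mitochondrial share of counts was 6.23% to 9.35% untreated and 13.7% to 15.9% treated in GFP+ cells, and 9.90% to 10.4% and 10.7% to 12.8% in tdTomato+ cells. The part of these markers and of the mitochondrial share in the results was not tested.

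The difference between the 2 luminal responses was called for 2 members, Elovl6 (1.76, SE 0.27, adjusted p = 0.002) and Scap (0.90, SE 0.15, adjusted p = 0.0039), both positive, beside 0.786% of all genes called positive and 1.49% negative, 2.27% in all. Both fell in tdTomato+ cells and stood slightly higher, without a call, in GFP+ cells after E+P. Scap missed the threshold with the mouse as a block (0.91, adjusted p = 0.0102) and without untreated mouse 1 or 4 or E+P mouse 1, 2 or 3 (adjusted p = 0.012 to 0.032), and Elovl6 without untreated mouse 1 or E+P mouse 2 or 3 (adjusted p = 0.011 to 0.024). Srebf1 (0.91, SE 0.24, adjusted p = 0.033), Srebf2 (0.32, SE 0.17, adjusted p = 0.28), Insig1 (0.86, SE 0.54, adjusted p = 0.37), Fasn (0.50, SE 0.28, adjusted p = 0.33) and Sqle (0.23, SE 0.25, adjusted p = 0.64) were not called.

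**Figure D4:**
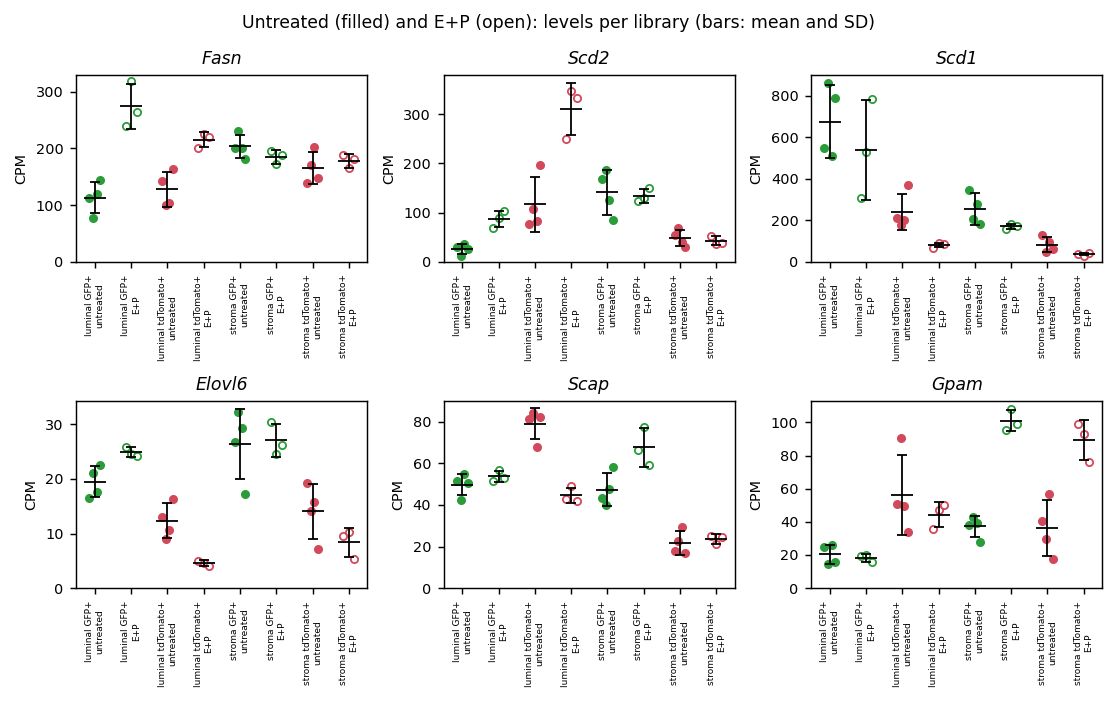
Levels of 6 genes in each of the 28 libraries (vertical axis CPM from 0, filled points untreated, open points E+P, green GFP+, red tdTomato+), with mean and SD as bars. Fasn and Scd2 sit higher after E+P in luminal cells, Elovl6 and Scap lower in tdTomato+ luminal cells, and Gpam higher after E+P in both stromal populations.

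In the stroma no member was called after E+P by edgeR, where 0.163% and 0.0675% of all genes were called higher and lower in GFP+ and 0.0281% and 0.0956% in tdTomato+ stroma. At an unadjusted p under 0.05 there were 9 members in GFP+ and 11 in tdTomato+ stroma. DESeq2 called 2 members in each, and limma-voom 1 and 0. Without the shares of all genes beside them, these counts are not read as a response of the members. Treated and untreated libraries did not overlap for 4 members that were higher and 6 that were lower in GFP+ stroma (6.91% and 6.06% of all genes), and for 1 and 5 in tdTomato+ stroma (5.2% and 5.48%).

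Gpam, the gene of the first step of glycerolipid synthesis, was the member nearest to a call. It stood at 38.4, 43.1, 39.5 and 28.1 CPM in untreated and 95.6, 108 and 99.3 CPM in E+P GFP+ stroma (log2 fold change 1.45, SE 0.27, adjusted p = 0.021). In tdTomato+ stroma it stood at 40.3, 29.7, 57.01 and 17.4 and 99.3, 92.9 and 76.1 CPM (log2 fold change 1.31, SE 0.27, adjusted p = 0.037). In both populations every treated library was above every untreated one, and DESeq2 called both. In luminal cells Gpam stood at 14.5 to 25.9 CPM untreated and 15.7 to 20.1 CPM treated in GFP+ cells and at 33.7 to 90.6 and 35.8 to 49.9 CPM in tdTomato+ cells, overlapping in each.

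Fads2 stood lower in E+P GFP+ stroma (23.8, 21.3, 13.5 and 14.03 CPM to 7.95, 7.50 and 7.87 CPM, log2 fold change -1.21, SE 0.24, adjusted p = 0.027), and Fasn at -0.12 (SE 0.13, adjusted p = 0.97) in GFP+ and 0.11 (SE 0.13, adjusted p = 0.73) in tdTomato+ stroma. Of the regulators, Srebf1 stood at -0.34 in GFP+ and 0.08 in tdTomato+ stroma (adjusted p = 0.76 and 0.88), Srebf2 at -0.45 and -0.24 (0.47 and 0.55), Scap at 0.53 and 0.12 (0.33 and 0.8) and Insig1 at -0.23 and -0.35 (0.95 and 0.48). Sqle stood at -0.26 and -0.23 (adjusted p = 0.93 and 0.67). The sterol median was -0.15 in GFP+ and -0.52 in tdTomato+ stroma. Luminal markers summed to 19.9 to 480.2 CPM in untreated and 3.18 to 37.6 CPM in treated tdTomato+ stroma, and to 19.4 to 88.3 and 3.98 to 5.84 CPM in GFP+ stroma. Endothelial markers (4 genes) summed to 22.8 to 47.96 CPM in untreated and 48.3 to 58.8 CPM in treated GFP+ stroma, and to 22.7 to 82.9 and 78.6 to 229.8 CPM in tdTomato+ stroma. The part of these markers in the values was not tested.

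No member differed between the 2 stromal responses by edgeR (0.045% of all genes were called higher and 0.0% lower). There were 6 members under an unadjusted p of 0.05, none called by DESeq2 or limma-voom. Hmgcs1 differed by 1.20 (SE 0.36, adjusted p = 0.23), having stood at 109, 118, 77.8 and 64.8 CPM and 186, 119 and 128 CPM in GFP+ stroma against 101, 92.3, 94.2 and 48.7 and 48.2, 55.8 and 67.7 CPM in tdTomato+ stroma. Gpam differed by 0.13 (SE 0.38, adjusted p = 0.95). Srebf1 (-0.42), Srebf2 (-0.20), Scap (0.40), Insig1 (0.12), Fasn (-0.24) and Sqle (-0.03) had adjusted p of 0.66, 0.85, 0.67, 0.94, 0.72 and 0.99.

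Between lineages, the E+P response, averaged over subsets, differed for 4 members, where 2.66% of genes were called higher in luminal cells and 2.47% lower (5.13% in all). The response was more positive in luminal cells for Fasn (1.03, SE 0.18, adjusted p = 3.8e-04) and Scd2 (1.68, SE 0.34, adjusted p = 0.002). It was more negative there for Gpam (-1.62, SE 0.31, adjusted p = 0.0011) and Scap (-0.68, SE 0.16, adjusted p = 0.0062). Taken population by population, Scap was called after E+P only in tdTomato+ luminal cells, where it fell. No sterol gene was called by edgeR, with 3 under an unadjusted p of 0.05. With the mouse as a block Scd2 was at the threshold (1.65, adjusted p = 0.01004). Without single mice each lost the call: Fasn without E+P mouse 2 (adjusted p = 0.014), Scd2 without untreated mouse 1 or E+P mouse 2 or 3 (adjusted p = 0.012 to 0.033), Gpam without E+P mouse 1 or 2 (adjusted p = 0.014 to 0.019) and Scap without untreated mouse 1 or 2 or E+P mouse 1, 2 or 3 (adjusted p = 0.015 to 0.067). Srebf1 (0.13), Srebf2 (0.13), Insig1 (-0.41) and Sqle (0.26) were not called (adjusted p = 0.77, 0.71, 0.48 and 0.52).

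Luminal cells and stroma of the same mice differed in more members than any other contrast, given as log2 fold changes of luminal over stromal cells. In GFP+ cells 10 of 36 were called higher in luminal cells and 13 lower, beside 24.8% and 27.7% of all 19569 genes (52.5% in all). In tdTomato+ cells 15 were higher and 9 lower, beside 27.4% and 31.9% (59.3% in all). Scaled by library size alone, which moved the median of all genes by 0.39 and 0.19 log2, the counts were 11 and 7 in GFP+ and 16 and 7 in tdTomato+ cells. Srebf1 was higher in luminal cells and Insig1 higher in stroma in both subsets, by each scaling. Among calls not described further, Dgat1 (-0.59) in GFP+ cells was lost with the mouse as a block (adjusted p = 0.012) and without untreated mouse 2 or 3 or E+P mouse 1, 2 or 3 (adjusted p = 0.02 to 0.061), and Msmo1 (-1.01) without untreated mouse 2 or E+P mouse 1, 2 or 3 (adjusted p = 0.011 to 0.031). In tdTomato+ cells Cyp51 (-0.65) and Dhcr7 (0.86) were lost with the block (adjusted p = 0.012 and 0.013), Cyp51 without untreated mouse 3 or E+P mouse 1 or 3 (adjusted p = 0.032 to 0.038), Dhcr7 without untreated mouse 1 or 4 or E+P mouse 1, 2 or 3 (adjusted p = 0.02 to 0.033), Elovl1 (0.38) without untreated mouse 1, 2, 3 or 4 or E+P mouse 2 or 3 (adjusted p = 0.011 to 0.061), Mvd (-1.14) without E+P mouse 1 or 3 (adjusted p = 0.019 to 0.02) and Thrsp (-3.38) without untreated mouse 3 or E+P mouse 2 or 3 (adjusted p = 0.011 to 0.024).

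Insig1, which retains the SREBP complex and is itself an SREBP target, stood at 2.16 to 14.4 CPM over the 14 luminal libraries and 23.5 to 67.9 CPM over the 14 stromal ones, without overlap. The difference was -2.49 (SE 0.24, adjusted p = 1.3e-09) in GFP+ and -2.20 (SE 0.24, adjusted p = 1.0e-08) in tdTomato+ cells. Srebf1 stood at 97.98 to 201 CPM in luminal and 37.9 to 104 CPM in stromal libraries (1.09, SE 0.14, adjusted p = 1.7e-07, and 1.34, SE 0.14, adjusted p = 4.6e-09). Within each mouse and subset its level was higher in the luminal cells in 7 of 7 mice. Exons of Srebf1 overlap those of Rai1 on the opposite strand, so their reads may not be separate. Rai1 differed by 0.44 (adjusted p = 0.0054) in GFP+ and 0.03 (adjusted p = 0.86) in tdTomato+ cells. Srebf2 (-0.28, SE 0.12, adjusted p = 0.038, and -0.01, SE 0.12, adjusted p = 0.97) did not pass, and Scap passed in tdTomato+ cells (1.39, SE 0.11, adjusted p = 7.2e-11) and not in GFP+ cells (-0.13, SE 0.11, adjusted p = 0.33).

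Elovl5 was lower in luminal cells, at 12.6 to 23.7 CPM, than in any stromal library (33.2 to 275 CPM), with differences of -1.76 (SE 0.12, adjusted p = 2.0e-12) in GFP+ and -3.65 (SE 0.13, adjusted p = 2.3e-17) in tdTomato+ cells. Fads2 was higher in luminal cells in the GFP+ comparison (2.86, SE 0.25, adjusted p = 2.5e-10) and Dgat2 in both (1.79, SE 0.43, adjusted p = 8.3e-04, and 3.87, SE 0.42, adjusted p = 2.2e-08). Scd1 was higher in luminal cells in both (1.53 and 1.31, adjusted p = 4.8e-06 and 3.4e-05). Scd2 was called lower in GFP+ luminal cells (-1.51, SE 0.24, adjusted p = 8.5e-06) and higher in tdTomato+ luminal cells (2.07, SE 0.25, adjusted p = 1.0e-07), each against stroma of the same colour. Gpam was lower in GFP+ luminal cells (-1.67, SE 0.22, adjusted p = 4.3e-07) and Dgat1 in tdTomato+ luminal cells (-2.90, SE 0.20, adjusted p = 2.2e-12). Fasn did not pass in either (-0.14, SE 0.12, adjusted p = 0.34, and -0.05, SE 0.12, adjusted p = 0.76).

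In the sterol branch 4 genes were called higher and 5 lower in GFP+ luminal cells, and 6 and 4 in tdTomato+ luminal cells, each against stroma. That is 9 and 10 of 15 genes, where 52.5% and 59.3% of all genes were called. Hmgcs1 (-1.83, SE 0.25, adjusted p = 7.6e-07), Cyp51 (-1.58, SE 0.21, adjusted p = 2.6e-07) and Hsd17b7 (-1.44, SE 0.21, adjusted p = 1.2e-06) were lower in GFP+ luminal cells than in GFP+ stroma, and Lss, which closes the sterol rings, was higher (1.56, SE 0.20, adjusted p = 2.1e-07). Cyp51, lanosterol demethylase, stood at 18.6, 5.43, 13.4 and 17.3 CPM in untreated GFP+ luminal cells and 43.4, 46.3, 44.2 and 38.1 CPM in untreated GFP+ stroma, with 17.4, 19.8 and 18.7 and 67.8, 46.6 and 45.4 CPM after E+P. Exons of Cyp51 overlap those of Akap9 on the opposite strand, which differed by 0.36 (adjusted p = 4.3e-05).

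In tdTomato+ cells Sc5d (1.90, SE 0.12, adjusted p = 5.1e-13), Lss (1.47, SE 0.20, adjusted p = 4.4e-07), Fdft1 (1.24, SE 0.19, adjusted p = 1.9e-06) and Sqle (0.59, SE 0.15, adjusted p = 0.0016) were higher in luminal cells and Hsd17b7 (-1.99, SE 0.21, adjusted p = 7.0e-09) and Idi1, the isomerase of the mevalonate pathway (-1.40, SE 0.27, adjusted p = 5.8e-05), were lower. Hsd17b7, which reduces a sterol ketone, stood at 2.31 to 8.09 CPM in luminal and 9.98 to 26.4 CPM in stromal libraries, again without overlap. Ctsb, on the opposite strand of Fdft1, differed by 0.72 (adjusted p = 3.8e-07) between tdTomato+ luminal cells and stroma, so their reads may not be separate. Sqle lost its call without untreated mouse 4 or E+P mouse 2 (adjusted p = 0.013 to 0.017), and in GFP+ cells it did not pass (-0.21, SE 0.15, adjusted p = 0.24).

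**Figure D5:**
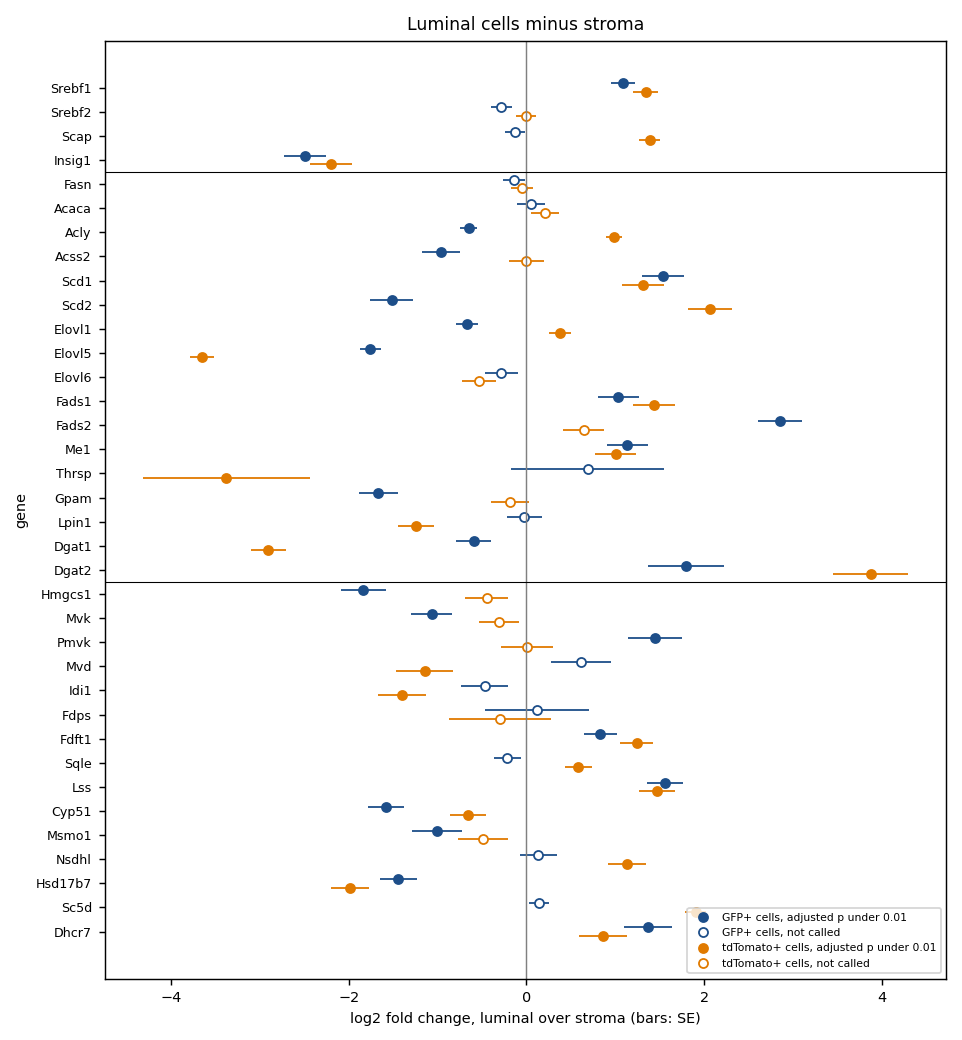
Log2 fold change of luminal cells over stroma for each of the 36 genes in GFP+ (blue) and tdTomato+ cells (orange), with SE as bars and filled points for adjusted p under 0.01. Srebf1, Scd1, Fads1, Me1, Dgat2, Lss and Fdft1 lie to the right in both, Insig1, Elovl5, Hsd17b7 and Cyp51 to the left in both, and Scd2 and Acly on opposite sides.

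Genes beside the members were counted from 2 further lists, 21 other synthesis genes and 17 genes of lipid uptake, droplets and efflux. Between luminal subsets, 2 of 19 tested synthesis genes were called higher in GFP+ cells and 9 lower, and 5 and 4 of 16 tested uptake genes, beside the 15.7% and 19.0% above. Between stromal subsets the counts were 5 and 2 of 18, and 10 and 2 of 15, where 20.6% and 21.3% of all genes were called. After E+P, 3 of 16 tested uptake genes were called higher in tdTomato+ luminal cells and 1 lower, beside 7.63% and 6.44% of all genes. In GFP+ luminal cells 1 of 19 synthesis genes (Agpat2, -0.75 (SE 0.15, adjusted p = 0.0059)) and 1 of 16 uptake genes (Lipa) were called, both lower, beside 2.78%. For the difference of the 2 luminal responses, GFP+ minus tdTomato+, 1 of 16 uptake genes was called, as negative (adjusted p = 0.0069), beside 1.49% of all genes. The calls in these 2 lists were not checked with other scalings or tools or without single mice.

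Soat1, which esterifies cholesterol, rose in tdTomato+ luminal cells after E+P from 17.8, 22.2, 20.4 and 27.4 CPM to 290.2, 193 and 173 CPM (log2 fold change 3.35, SE 0.64, adjusted p = 0.0027), and Npc2, which carries cholesterol out of the lysosome, by 2.79 (SE 0.28, adjusted p = 2.4e-05). Lipa, the lysosomal acid lipase, fell in tdTomato+ (-1.97, SE 0.36, adjusted p = 0.0018) and GFP+ luminal cells (-1.62, SE 0.34, adjusted p = 0.0081). In the stroma none of either list was called after E+P by edgeR, with 1 synthesis and 2 uptake genes under an unadjusted p of 0.05 in GFP+ stroma and 2 and 3 in tdTomato+ stroma.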

How the data were processed

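RNA of 28 sorted populations (SMARTer stranded pico kit, 2 ng of RNA, paired-end reads of 75 bases) had been aligned by the authors with STAR 2.5.2a to GRCm38.p5, and the counts they deposited are whole-number reads per gene, not normalized. The GENCODE release and the strand setting of the counting are not given in the sources used here. Gene IDs, with the version dropped, were matched to GENCODE M21 (50376 of 50600) for symbols, positions and exon lengths. RNA integrity numbers ran from 1 to 10 per the labels.

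Counts were fitted with edgeR 4.0.16 (R 4.3.3; TMM scaling, filterByExpr, robust quasi-likelihood F-test, group means), over the 14 luminal, the 14 stromal or all 28 libraries, with 16538, 17783 and 19569 genes tested and all 36 members among them. Adjusted p under 0.01 (Benjamini-Hochberg over all genes tested) was a call. CPM used TMM-scaled totals over 28 libraries, and SE is the log2 fold change divided by the square root of F. The fits were tested on simulated data. Groups came from the sample labels, and each mouse is 1 replicate.

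The 4 libraries of a mouse share its number, so subset and lineage comparisons could be paired by mouse. The main fits did not use this pairing, and the mouse entered as a block only among the alternatives. Deviations from group means correlated at a mean of 0.157 between the 2 luminal libraries of a mouse and 0.0496 between the 2 stromal ones. Alternatives were DESeq2 1.42.0, limma-voom 3.58.1, other scalings, no low-count filter, the mouse as a block, single fits per comparison and leaving out each mouse. The members and lists were chosen with earlier results of these data known. Named in every comparison were the regulators, Fasn and Sqle, and per branch up to 4 other called members with the largest change and at least 10 CPM. Other members named were chosen after their values were seen. Depth and counting limits cover counting error only. An item of the list of other synthesis genes is not reported here.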

Additional observations from a re-analysis of the deposited data

Results flagged for a closer look

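Of 102 groups of 4 libraries tested, 6 had a library far from the other 3 by Dixon's criterion, where chance gives about 1 in 20. Scap stood at 67.9 CPM in untreated tdTomato+ luminal cells of mouse 3, against 81.4 to 84.3 CPM in the others. Elovl5 stood at 33.2 CPM in untreated GFP+ stroma of mouse 4, against 55.6 to 59.4 CPM in the others. Hmgcs1 stood at 48.7 CPM in untreated tdTomato+ stroma of mouse 4, against 92.3 to 101 CPM in the others. Pmvk stood at 21.8 CPM in untreated tdTomato+ stroma of mouse 1, against 6.86 to 8.23 CPM in the others. Lss stood at 28.1 CPM in untreated tdTomato+ luminal cells of mouse 2, against 22.8 to 23.2 CPM in the others. Hsd17b7 stood at 15.1 CPM in untreated tdTomato+ stroma of mouse 2, against 24.2 to 26.4 CPM in the others.

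The E+P response differed between GFP+ and tdTomato+ luminal cells for Scap (0.90) and Elovl6 (1.76), as log2 differences with GFP+ first. It differed between luminal cells and stroma for Scap (-0.68), Fasn (1.03), Scd2 (1.68) and Gpam (-1.62), with luminal cells first. The difference between subsets differed between luminal cells and stroma for Scap (-1.51), Acly (-1.63), Acss2 (-0.96), Scd2 (-3.58), Elovl1 (-1.05), Elovl5 (1.89), Fads2 (2.21), Gpam (-1.48), Lpin1 (1.21), Dgat1 (2.31), Dgat2 (-2.08), Hmgcs1 (-1.39), Pmvk (1.44), Mvd (1.76), Sqle (-0.80), Nsdhl (-0.996) and Sc5d (-1.76), again with luminal cells first. Each passed the interaction test at an adjusted p under 0.01 by edgeR over all genes.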

How the results depend on the processing

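Depth set a floor of 3 counts, 0.122 to 0.348 CPM, which bears on Thrsp and Fdps. With 3 or 4 mice a group, the E+P calls rested on few animals: without 1 mouse the members called were 13 to 15 between luminal subsets, 13 to 15 between stromal subsets, 0 to 3 after E+P in GFP+ and 3 to 9 in tdTomato+ luminal cells, 0 to 1 in GFP+ and 0 to 0 in tdTomato+ stroma, 0 to 2 and 0 to 0 for the difference of responses in luminal cells and stroma, 21 to 23 and 19 to 24 between lineages in GFP+ and tdTomato+ cells, 10 to 14 for the difference of subset differences and 0 to 5 for that of E+P responses between lineages. The stability of single calls was counted only for the genes named by the rule in each comparison, not for the other called members. Refitted without a mouse, 375 values of these calls stayed called and 66 did not. Under the other settings 457 did and 14 did not. The 457 count each of the 63 called results of these named genes once at adjusted p under 0.05 in the main fit. A call at 0.01 passes that threshold by definition, so this part of the 457 cannot show stability. None of the values of these 63 called results turned direction under any alternative run.

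After E+P in GFP+ luminal cells 2 members were called, and 6 at adjusted p under 0.05, 5 by DESeq2, 1 with library size only and 1 in a fit of the groups compared alone. In tdTomato+ luminal cells 13 were called at adjusted p under 0.05 against 6. In GFP+ stroma, with 0 called, there were 2 at 0.05, 2 by DESeq2, 2 without the low-count filter, 2 in a fit of the groups compared alone, 1 by limma-voom, 1 with library size only and 1 with the replicate number as a block. In tdTomato+ stroma, also with 0, there were 1 at 0.05, 2 by DESeq2 and 2 without the filter. For the difference of luminal responses, with 2, there were 4 at 0.05, 4 by DESeq2 and 1 with the mouse as a block, and for that of stromal responses, with 0, 2 without the filter. Without the filter the median prior degrees of freedom of the luminal fit rose from 4.19 to 20.7 and those of the 28-library fit from 5.10 to 26.5. Those of the stromal fit rose from 7.14 to infinity. The shares of all genes called at these settings are not given beside the counts. The cause of the changes in the counts of calls was not tested.

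The replicate number joins an untreated mouse with an unrelated E+P mouse and so pairs nothing in that comparison, and as a block it gave 2 and 8 members after E+P in GFP+ and tdTomato+ luminal cells and 1 and 0 in GFP+ and tdTomato+ stroma. For the subset and lineage comparisons the block on the mouse changed no call beyond those given above with their values. It added Cyp51 between stromal subsets (0.46, adjusted p = 0.0092).

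Changes of direction were likewise followed only for the genes named by the rule in each comparison. Uncalled values that turned direction with library size only were Scap after E+P in GFP+ luminal cells (-0.00211), Srebf2, Scap, Fasn and Sqle between lineages in GFP+ cells (0.11, 0.26, 0.25 and 0.18), Srebf2 and Fasn in tdTomato+ cells (0.18 and 0.15), Fasn in the difference of subset differences (0.11), and Srebf1 and Srebf2 in the difference of E+P responses between lineages (-0.005046 and -0.0152). Between lineages in tdTomato+ cells Srebf2 also turned without the filter (0.10), by limma-voom (0.0148), with the mouse as a block (0.00436) and in a fit of the groups compared alone (0.0001077), and Fasn without the filter (0.0626). Without 1 mouse the values spanned 0 for Sqle between stromal subsets (-0.00841 to 0.22), Srebf2 and Sqle after E+P in GFP+ luminal cells (-0.14 to 0.017 and -0.035 to 0.28), Sqle in tdTomato+ luminal cells (-0.15 to 0.00857), Srebf1 in tdTomato+ stroma (-0.0368 to 0.19), Srebf2, Insig1 and Sqle in the difference of stromal responses (-0.40 to 0.0165, -0.0961 to 0.39 and -0.31 to 0.16), Srebf2 and Fasn between lineages in tdTomato+ cells (-0.0761 to 0.08012 and -0.14 to 0.0716), and Srebf1 and Srebf2 in the difference of E+P responses between lineages (-0.01027 to 0.26 and -0.0127 to 0.21).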
